A study of Mus musculus with 8 samples.

Results

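The Hox genes of the 4 clusters were described in neural progenitor (NP) cells that lacked or carried *Sox3*. Members were all rows whose gene symbol is Hoxa, Hoxb, Hoxc or Hoxd followed by a number alone. This gave 37 genes, with 10 in *Hoxa* and 9 each in *Hoxb*, *Hoxc* and *Hoxd*, among 23410 named rows of 35556 in all. *Hoxb8* was measured only by a row that it shares with *Hoxb7*, which is no member and is given apart. Each member had 1 row, a transcript cluster with 1 value per array for the probes along a gene.

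RNA came from mouse R1 embryonic stem (ES) cells at Day 4 of monolayer differentiation in N2B27 medium. The *Sox3* null cells carry a GFP reporter knocked into the *Sox3* locus, and the control cells carry a conditional *Sox3* allele and are *Sox3* positive. Each genotype had 4 arrays, 2 from differentiation batch 1 and 2 from differentiation batch 2. Both genotypes were R1 cells, and each genotype is 1 line, so an effect of *Sox3* and another difference between the lines cannot be told apart. The labels give gelatine-coated plates before differentiation, while the methods of the study give irradiated feeder fibroblasts. The cultures were not sorted, so a lower signal from fewer cells of a type and from less RNA per cell cannot be told apart.

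Hox genes encode homeodomain transcription factors that give cells their position along the head-to-tail axis. Within a cluster, genes at the 3′ end, which have low paralog numbers, are switched on earlier and reach further towards the head than genes at the 5′ end. In the nervous system the 3′ genes mark segments of the hindbrain and the 5′ genes mark the spinal cord. Retinoic acid, Wnt and FGF signals and Cdx factors open the clusters, Polycomb proteins keep them silent, and Pbx and Meis proteins bind DNA together with Hox proteins. SOX3 is a SoxB1 factor of neural progenitors.

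The array medians of the named rows ran between 7.63 and 7.70 on the log2 scale. *Sox3* itself had log2 signals of 8.39, 8.56, 8.67 and 8.37 on the null arrays, against 9.92, 9.84, 9.73 and 9.76 on the control arrays. The groups did not overlap, and the log2 fold change was -1.31 (adjusted p = 3.87e-05 from limma). The neural progenitor markers *Sox1*, *Sox2*, *Pax6*, *Nes*, *Sox9*, *Zic1*, *Fabp7* and *Hes5* were all above the median of the named rows, 8 of 8. So were 7 of 8 genes of pluripotent cells and 4 of 11 fibroblast genes, so this level does not mark neural cells alone. In the null cells 3 of the 8 neural progenitor markers rose (*Nes*, *Sox9* and *Zic1*) and none fell. Of all named rows, 1.55% had an adjusted p of 0.05 or less by genotype.

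Promoters are shown for 3 genes on which the results turn: *Hoxb1* and *Hoxa2*, which lay high on the arrays, and *Hoxb8*, part of the only row of the clusters that passed the test by genotype. Each window is from RefSeq on GRCm38.p6 and holds 300 bases around a start site, most of them before it. *Hoxb1* is at chr11:96365508-96365807 on the plus strand, *Hoxa2* at chr6:52164782-52165081 on the minus strand, and *Hoxb8* at chr11:96281655-96281954 on the plus strand. Capitals mark matches on either strand to a SOX motif (ACAANG) or a PBX-HOX motif (TGATNNAT).
*Hoxb1*: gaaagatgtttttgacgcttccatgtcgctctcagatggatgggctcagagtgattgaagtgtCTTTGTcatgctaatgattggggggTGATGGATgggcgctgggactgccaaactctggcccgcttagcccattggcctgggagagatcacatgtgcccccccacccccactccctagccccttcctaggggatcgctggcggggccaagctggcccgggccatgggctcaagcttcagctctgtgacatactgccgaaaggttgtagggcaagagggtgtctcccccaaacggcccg
*Hoxa2*: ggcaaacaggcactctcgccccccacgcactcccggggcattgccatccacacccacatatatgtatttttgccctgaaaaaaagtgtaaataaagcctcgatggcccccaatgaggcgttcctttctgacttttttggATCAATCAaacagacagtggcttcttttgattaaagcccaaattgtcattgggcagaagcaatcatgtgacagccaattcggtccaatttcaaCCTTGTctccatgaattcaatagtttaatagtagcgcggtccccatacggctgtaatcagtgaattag
*Hoxb8*: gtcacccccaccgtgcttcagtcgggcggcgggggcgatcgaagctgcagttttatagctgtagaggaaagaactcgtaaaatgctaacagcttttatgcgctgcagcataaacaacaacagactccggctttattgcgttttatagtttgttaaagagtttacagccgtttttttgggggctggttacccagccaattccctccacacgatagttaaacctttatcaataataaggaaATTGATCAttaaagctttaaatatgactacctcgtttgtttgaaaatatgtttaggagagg
With positions counted from the start, *Hoxb1* holds a SOX match (CTTTGT) at -187 and a PBX-HOX match (TGATGGAT) at -162. *Hoxa2* holds a PBX-HOX match at -111 and a SOX match at -18, and *Hoxb8* a PBX-HOX match at -11. No 2 of these matches overlap.

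Promoters were found for 21 of the 37 members, 23 windows in all. The SOX motif was in 8 of the 23 (34.8%), against 41.2% of all 32851 promoters of this length. The PBX-HOX motif was in 3 of the 23 (13.04%), against 8.85% of all. The median GC content was 58% in the Hox windows and 52.7% in all windows. Matches of such short motifs describe the letters only, and no binding was measured here. No promoter of *Hoxb2* or *Hoxb3* is shown.

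On the arrays, 6 genes of the 3′ part of *Hoxa* and *Hoxb* and the 5′ gene *Hoxb9* lay above the median of the named rows. The 3′ gene *Hoxb4* lay below it. Of the 37 members, 7 (18.9%) lay above the median of the named rows, 7.67 on the log2 scale, which 50% of all named rows do by construction. They were *Hoxa2*, *Hoxa3*, *Hoxa4*, *Hoxb1*, *Hoxb2*, *Hoxb3* and *Hoxb9*. The same 7 lay above 7.70, the highest of 14 genes specific to tissues such as liver, heart and pancreas, which 49.6% of all named rows did. So did the *Sox3* row on the null arrays, at 8.37 to 8.67, though these cells lack *Sox3*. A signal above these lines thus does not by itself show an intact transcript. *Hoxa3*, *Hoxa4* and *Hoxb9* lay close to them, with means of 7.94, 7.95 and 7.87. By paralog number, 6 of the 11 members with numbers 1 to 4 lay above the median, with 0 of 10 for numbers 5 to 8 and 1 of 16 for numbers 9 to 13. A row's signal also depends on its probes, so these are places among rows and not an order of mRNA amounts.

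**Figure D1:**
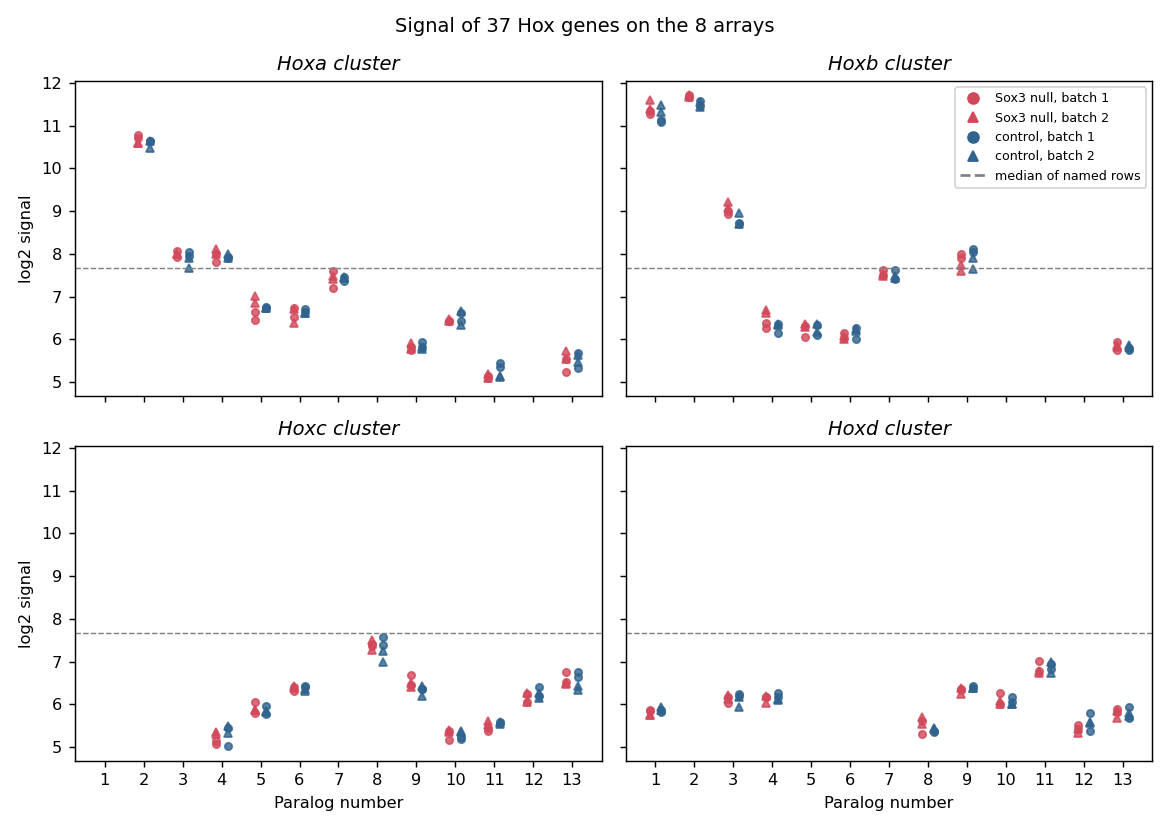
Log2 signal (vertical axis) of the 37 Hox genes by paralog number (horizontal axis) in the 4 clusters, with 1 point per array, *Sox3* null in red left of control in blue, circles for batch 1 and triangles for batch 2. The dashed line is the median of the named rows, 7.67, and 7 genes of *Hoxa* and *Hoxb* have a mean above it while none of *Hoxc* or *Hoxd* does.

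In the *Hoxa* cluster, *Hoxa2*, which patterns the second rhombomere and the second pharyngeal arch, had the highest signal. It had 10.77, 10.71, 10.59 and 10.61 in null cells, against 10.65, 10.65, 10.64 and 10.47 in control cells, a place at percentile 86 of the named rows. The null and control arrays overlapped. *Hoxa3*, a gene of the caudal hindbrain and the pharyngeal arches, and *Hoxa4* lay just above the median with means of 7.94 and 7.95. The other 7 *Hoxa* members lay below it, down to a mean of 5.19 for *Hoxa11*, a gene of limb and urogenital patterning.

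In the *Hoxb* cluster, *Hoxb1*, which marks the fourth rhombomere, and *Hoxb2*, which acts downstream of it in the hindbrain, lay at percentiles 91.5 and 93.1. *Hoxb3*, also a hindbrain gene, lay at percentile 65, and *Hoxb4* only at 33.3. *Hoxb9*, a gene of the trunk, lay at percentile 52.3. The 5 members *Hoxb4*, *Hoxb5*, *Hoxb6*, *Hoxb7* and *Hoxb13* had means below the median.

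No member of *Hoxc* or *Hoxd* had a mean above the median of the named rows. The highest were *Hoxc8*, a brachial and thoracic spinal cord gene, at 7.34 (percentile 46.2), and *Hoxd11*, a gene of limb and lumbar patterning, at 6.85 (percentile 40.3). *Hoxc8* had 7.36, 7.40, 7.27 and 7.49 in null cells, against 7.38, 7.58, 6.99 and 7.25 in control cells. *Hoxd11* had 6.78, 7.02, 6.74 and 6.77 in null cells, against 6.95, 6.83, 6.73 and 6.98 in control cells. The genotypes overlapped in both. The lowest means were 5.27 in *Hoxc*, for *Hoxc4*, and 5.47 in *Hoxd*, for *Hoxd8*.

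No Hox member passed the test between *Sox3* null and control cells. Calls needed both an adjusted p no higher than 0.05 and a 1.4-fold difference or larger. By this rule 0 of 37 members were called, where 0.431% of all named rows were, and 0 members had an adjusted p of 0.05 or less, where 1.55% of all did. A plain linear model also gave 0 members. At an unadjusted p under 0.05 there were 5 of 37 (13.5%), against 13.1% of all named rows. All 5 were higher in null cells, where 7.31% of all named rows were higher at that p. They were *Hoxb1*, *Hoxb2*, *Hoxb3*, *Hoxb4* and *Hoxc9*. The 95% interval of each of the 37 members lay within a change of 1.4-fold in either direction, as did 98.1% of all named rows. Only 7 of the 37 lay above the highest of the genes specific to other tissues. For the rest, at signals this low, a narrow interval does not show that the RNA was unchanged.

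The median log2 fold change, null over control, was 0.01 over the 37 members and -0.00 over all named rows. It was -0.01 in *Hoxa*, 0.04 in *Hoxb*, 0.01 in *Hoxc* and -0.02 in *Hoxd*. Leaving out 1 array gave -0.0405 to 0.0336 in *Hoxa*, 0.0197 to 0.0822 in *Hoxb*, -0.00692 to 0.0483 in *Hoxc* and -0.0352 to 0.00439 in *Hoxd*, so the sign of the median turned in *Hoxa*, *Hoxc* and *Hoxd*. By paralog number the medians were 0.07 for 1 to 4, 0.01 for 5 to 8 and -0.03 for 9 to 13. Of the members, 20 lay above 0 and 17 below, and of all named rows 49.9% lay above.

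**Figure D2:**
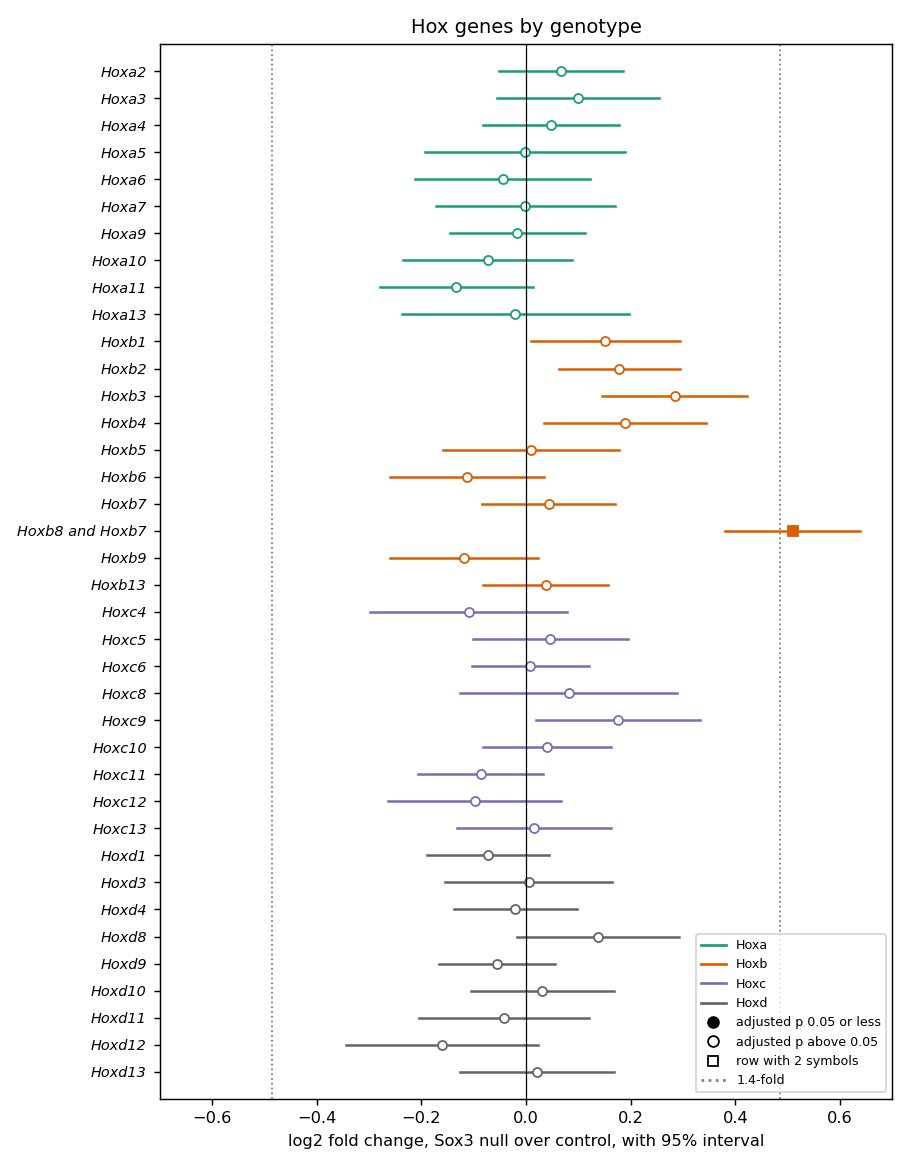
Fold change on the log2 scale, *Sox3* null over control (horizontal axis), with its 95% interval for each Hox gene (vertical axis), coloured by cluster, with filled symbols for an adjusted p of 0.05 or less and dotted lines at 1.4-fold. The circles are the 37 members, all open and between -0.16 and 0.28, and the square is the row of *Hoxb8* and *Hoxb7*, filled, at 0.51.

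Among the 3′ *Hoxb* genes, *Hoxb3* had the largest difference. It had 8.93, 9.01, 9.21 and 9.06 in null cells, against 8.70, 8.72, 8.71 and 8.95 in control cells. In each batch the pair of null arrays was above the pair of control arrays, but control replicate 4 lay above null replicate 1. The log2 fold change was 0.28 (standard error 0.06, 95% interval 0.14 to 0.42), with 0.26 within batch 1 and 0.31 within batch 2. It missed the threshold over the named rows (adjusted p = 0.0569 from limma). It passed in only 2 of 21 alternatives. These were the fit without control replicate 4 (0.33, adjusted p = 0.0397) and that with only the rows at or above the median signal (adjusted p = 0.0352). In the other 19 it did not pass. Among those, the adjusted p was 0.189 with all rows of the array, 0.0804 when the arrays were quantile normalized again and 0.254 in a plain linear model.

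*Hoxb2* had 11.71, 11.66, 11.71 and 11.66 in null cells, against 11.59, 11.47, 11.55 and 11.43 in control cells. All 4 null arrays lay above all 4 control arrays, which held for 1 of 37 members (2.7%) and for 2.41% of all named rows in that direction. The log2 fold change was 0.18 (standard error 0.05, 95% interval 0.06 to 0.29), which did not pass (adjusted p = 0.154 from limma). Null arrays above control arrays within each batch were found for *Hoxb2* and *Hoxb3*, 5.41% of the members, against 7.01% of all named rows.

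*Hoxb1* had 11.27, 11.34, 11.39 and 11.61 in null cells, against 11.08, 11.12, 11.31 and 11.49 in control cells. The genotypes were apart in batch 1 and overlapped in batch 2. Its log2 fold change was 0.15 (95% interval 0.01 to 0.29, adjusted p = 0.344 from limma). *Hoxb4*, which lies next to *Hoxb3* and acts in the caudal hindbrain and blood progenitors, had 6.27, 6.38, 6.62 and 6.69 in null cells, against 6.13, 6.37, 6.37 and 6.34 in control cells. Here the genotypes were apart in batch 2 alone, and the log2 fold change was 0.19 (95% interval 0.03 to 0.34, adjusted p = 0.267 from limma).

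Outside *Hoxb*, *Hoxc9*, a thoracic gene, had 6.44, 6.70, 6.41 and 6.49 in null cells, against 6.35, 6.35, 6.44 and 6.20 in control cells. The arrays overlapped through control replicate 3, and the log2 fold change was 0.18 (adjusted p = 0.317 from limma). The lowest log2 fold change of all members was that of *Hoxd12*, a limb gene. Its signals were 5.51, 5.42, 5.41 and 5.33 in null cells, against 5.80, 5.36, 5.59 and 5.57 in control cells. The log2 fold change was -0.16 (95% interval -0.34 to 0.02), and the arrays overlapped through control replicate 2. Leaving out 1 array gave -0.26 to -0.08.

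The extremes of the other clusters were as small. In *Hoxa* they were *Hoxa3*, with a log2 fold change of 0.10, and *Hoxa11*, with -0.13. *Hoxa3* had 7.92, 8.06, 8.0048 and 7.98 in null cells, against 7.96, 8.03, 7.67 and 7.91 in control cells. *Hoxa11* had 5.08, 5.15, 5.19 and 5.09 in null cells, against 5.44, 5.35, 5.13 and 5.13 in control cells. In *Hoxa11* the null arrays lay below the control arrays in batch 1 and on either side of them in batch 2. The lowest of *Hoxb* was *Hoxb9* with -0.12 (adjusted p = 0.479 from limma). The lowest of *Hoxc* was *Hoxc4* with -0.11, from 5.07, 5.14, 5.34 and 5.30 in null cells, against 5.45, 5.01, 5.33 and 5.49 in control cells, and leaving out 1 array gave -0.19 to -0.02. The highest of *Hoxd* was *Hoxd8* with 0.14, from 5.30, 5.61, 5.70 and 5.54 in null cells, against 5.36, 5.38, 5.43 and 5.43 in control cells. The genotypes overlapped in all of these genes.

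The row shared by *Hoxb8* and *Hoxb7* was chosen after its values were seen. It had 7.90, 7.95, 7.85 and 7.78 in null cells, against 7.41, 7.57, 7.18 and 7.28 in control cells. All null arrays lay above all control arrays. The mean of the row, 7.61 (percentile 49.4), lay below the median of the named rows, 7.67. It also lay below 7.70, the highest of the genes specific to other tissues. The control arrays lay below both lines and the null arrays above both, so the rise is at a low signal. The log2 fold change was 0.51 (standard error 0.06, 95% interval 0.38 to 0.64, adjusted p = 0.00164 from limma), a 1.42-fold rise, with 0.43 within batch 1 and 0.58 within batch 2. For the row of *Hoxb7* alone the log2 fold change was 0.04, with an interval of -0.08 to 0.17 (adjusted p = 0.825 from limma). Which transcript the shared row measured was not tested. The adjusted p of the shared row was 0.0766 in a linear model with each row's own variance, 0.0659 without the batch term, 0.136 in batch 1 alone and 0.0724 in batch 2 alone.

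**Figure D3:**
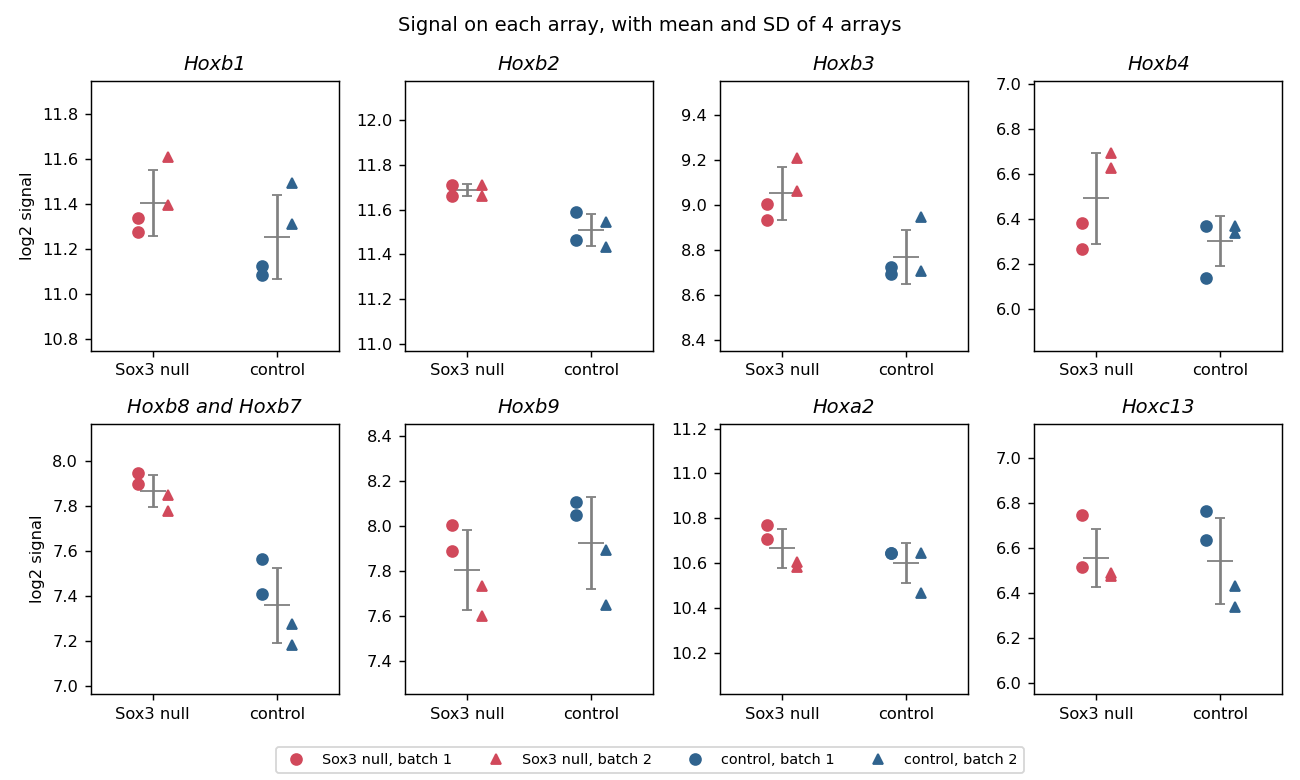
Log2 signal (vertical axis, 1.2 units in each panel) of 7 Hox genes and the row of *Hoxb8* and *Hoxb7* on each array, *Sox3* null left of control, circles for batch 1 and triangles for batch 2, with grey bars for the mean and SD of 4 arrays. *Hoxb2* and the shared row have all null arrays above all control arrays. In *Hoxc13* and *Hoxa2* every batch 2 array lies below every batch 1 array, in *Hoxa2* by a near tie.

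Differences between the 2 differentiation batches were also small in Hox genes. Batch 2 minus batch 1, 0 of 37 members were called, where 2.49% of all named rows were. At an adjusted p of 0.05 or less there were 4 members (10.8%), against 20.2% of all named rows. *Hoxb1* and *Hoxb4* were higher in batch 2 (10.9% of all named rows were), and *Hoxb9* and *Hoxc13* were lower (9.35% of all were). The median was -0.02 over the members, with 15 above 0 and 22 below (50.9% of all named rows lay above). Its sign turned, to 0.0342, when the arrays were quantile normalized again. Below 0 were 8 of the 9 *Hoxd* members, all of them rows of low signal (percentile 40.3 at most). All 37 intervals lay within 1.4-fold, as did 91.8% of all named rows, with the same limit for rows of low signal.

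*Hoxb9* had 7.73 and 7.60 in null cells and 7.89 and 7.65 in control cells of batch 2, against 7.89 and 8.0029 in null cells and 8.11 and 8.05 in control cells of batch 1. It was lower by batch in both genotypes, with a log2 difference of -0.30 (standard error 0.06, adjusted p = 0.0083 from limma). *Hoxb1* differed by 0.25 (adjusted p = 0.0204), with 0.20 in null cells and 0.30 in control cells. *Hoxb4* differed by 0.22 (adjusted p = 0.0491), with 0.33 in null cells and 0.10 in control cells.

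*Hoxc13*, a gene of hair follicles and the tail, had 6.47 and 6.49 in null cells and 6.43 and 6.34 in control cells of batch 2, against 6.75 and 6.51 in null cells and 6.76 and 6.64 in control cells of batch 1. Every batch 2 array lay below every batch 1 array, and the log2 difference was -0.23 (adjusted p = 0.0304 from limma). *Hoxa2* was ordered in the same way, with a difference of -0.12 that did not pass (adjusted p = 0.162 from limma). Its order rested on a near tie, with 10.6446 in control replicate 3 of batch 2 and 10.6452 in control replicate 1 of batch 1. *Hoxc13* and *Hoxa2* were 2 of 37 members (5.41%), against 9.34% of all named rows in that direction. Of the 4 that passed, *Hoxb9* also passed without each of the 8 arrays in turn, and the rest did not. *Hoxb1* no longer passed without null replicate 1 or 4 or control replicate 1, 2 or 4. *Hoxb4* no longer passed without any null replicate or without control replicate 1 or 3. *Hoxc13* no longer passed without null replicate 1 or 3 or any control replicate. The row of *Hoxb8* and *Hoxb7* was lower in batch 2, with a log2 difference of -0.18 (adjusted p = 0.0478 from limma) and, of the 8 fits that leave out an array, passed only in that without null replicate 3.

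**Figure D4:**
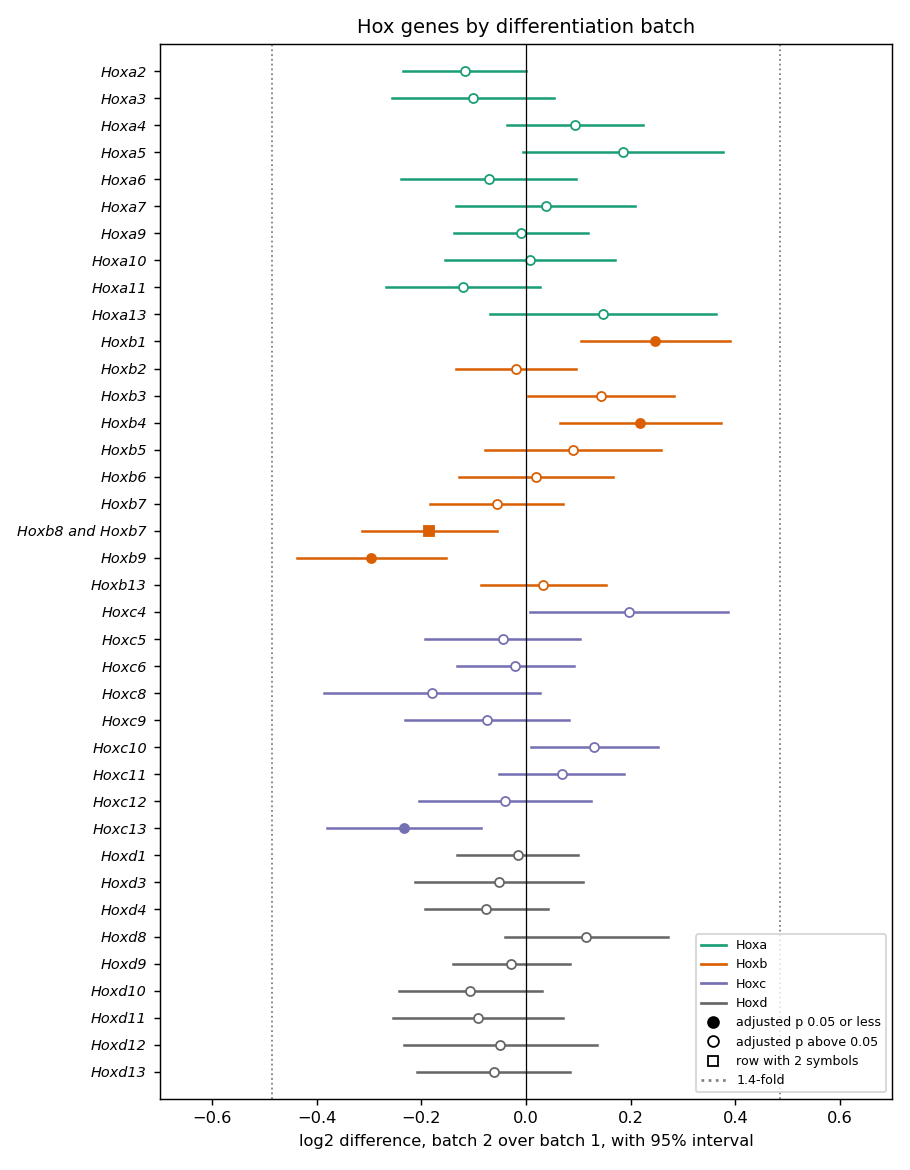
Log2 difference of batch 2 over batch 1 (horizontal axis) with its 95% interval for each Hox gene (vertical axis), coloured by cluster, with filled symbols for an adjusted p of 0.05 or less and dotted lines at 1.4-fold. *Hoxb1* and *Hoxb4* are filled above 0, *Hoxb9*, *Hoxc13* and the row of *Hoxb8* and *Hoxb7* are filled below 0, and no member reaches 1.4-fold.

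A genotype by batch term found 0 members and 0 of all named rows at an adjusted p of 0.05 or less. At an unadjusted p under 0.05 there were 2 members (5.41%), against 3.05% of all. They were *Hoxa11* and *Hoxa5* (named after its values were seen). *Hoxa5* had 6.64 and 6.44 in null cells, against 6.76 and 6.73 in control cells of batch 1, and 7.02 and 6.84 in null cells, against 6.73 and 6.73 in control cells of batch 2. Its null arrays thus lay below the controls in batch 1 and above them in batch 2.

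In the lists below, passing means an adjusted p of 0.05 or less, which 1.55% of all named rows had by genotype and 20.2% by batch. The lists share genes and are not independent: *Egr2*, *Gbx2*, *Wnt3a*, *En1*, *Nkx6-1* and *Mnx1* each stand in more than 1 list. Among 15 measured regulators of Hox genes, 0 rose and 1 fell in null cells, and 14 did not pass. The 1 was *Cyp26a1*, which degrades retinoic acid, at -0.33 (adjusted p = 0.0154 from limma). By batch, *Cyp26a1* was higher in batch 2 by 0.82, while *Cdx2* (-0.61), a posterior homeobox factor, *Egr2* (-0.97), which drives *Hoxa2* and *Hoxb2* in the hindbrain, *Rara* (-0.46), a retinoic acid receptor, and *Cyp26b1* (-0.59) were lower. Of 8 measured cofactors, none passed by genotype, and *Pbx3* (0.33) and *Pknox2* (-0.52) passed by batch. Of 20 Polycomb and trithorax genes, *Bmi1*, a Polycomb subunit, rose in null cells by 0.45 (adjusted p = 0.00741 from limma) and 19 did not pass. By batch, *Ezh1* (0.23) was higher in batch 2, and *Ring1* (-0.22), *Kmt2d* (-0.54) and *Kdm6b* (-0.28) were lower.

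Of 21 genes and RNAs within or beside the clusters, none passed by genotype. By batch, *Skap2* (0.36), beside the *Hoxa* cluster, and *Mtx2* (0.22), beside the *Hoxd* cluster, were higher in batch 2, and *Hoxaas2*, an antisense RNA of the *Hoxa* cluster, was lower (-0.51). Of 14 other homeobox genes of the same class outside the clusters, none passed by genotype. In batch 2, 4 of them were lower (*En1*, *Msx1*, *Msx2* and *Nkx6-1*), as were 9.35% of all named rows.

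Markers of cell types moved as follows, and their part in the Hox values was not tested. Of 7 anterior neural genes, *Otx2* (-0.47) and *Fezf2* (-0.64) fell in null cells, and the mean of the list was 7.15 to 7.39 in null cells, against 7.38 to 7.61 in control cells. Of 5 hindbrain and spinal cord genes none passed by genotype, with list means of 8.22 to 8.63 in null cells, against 8.35 to 8.69 in control cells. Of 7 posterior mesoderm genes none passed by genotype and none lay above the median of the named rows. Of 11 fibroblast genes, *Twist1* and *Prrx1* rose and *Thy1* fell in null cells, with list means of 7.31 to 7.53 in null cells, against 7.28 to 7.53 in control cells. Of 8 genes of pluripotent cells, *Nanog* fell in null cells (-0.37).

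By batch, 3 of the 5 hindbrain and spinal cord genes were lower in batch 2 (*Egr2*, *Nkx6-1* and *Olig2*) and none were higher. The list means were 8.22 to 8.37 in batch 2, against 8.57 to 8.69 in batch 1, and did not overlap. Of the 7 anterior neural genes, *Otx2* was higher in batch 2 and *Lhx2*, *Fezf2* and *En1* were lower. Of the 8 neural progenitor markers, *Fabp7* was higher and *Nes*, *Sox9*, *Zic1* and *Hes5* were lower. Of the 8 genes of pluripotent cells, *Dppa5a* and *Tdgf1* were higher and *Esrrb*, *Klf4* and *Fgf4* were lower. The mesoderm genes *Meox1* and *Foxc2* and the fibroblast genes *Col1a1*, *Col1a2* and *Fn1* were lower in batch 2. The fibroblast list means were 7.28 to 7.35 in batch 2, against 7.45 to 7.53 in batch 1, and did not overlap either.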

How the data were processed

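RNA of 8 cultures was hybridised to Affymetrix Mouse Gene 1.0 ST arrays, 1 array per culture. The deposited values are log2 signals per transcript cluster, normalized and summarised by the authors. Partek appears in the submitters' processing notes. The genome build and the methods of normalization and summary were not given in the sources used here. No detection calls were used. Names are those of the platform's annotation, brought up to date with a gene table of GRCm38.p6. A single symbol was found for 21789 of the 35556 rows, several for 1621 and none for 12146. All columns belonged to samples of the series (0 left out).

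limma 3.58.1 (R 4.3.3) was run over the 23410 named rows with genotype and batch as terms and Benjamini-Hochberg adjustment across all of these rows. The study describes its samples as biological replicates, and 4 arrays per genotype limit the precision. The median SD left after genotype and batch were fitted was 0.103 for Hox genes and 0.0869 for all named rows.

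The members, gene lists and alternatives were chosen with earlier results of these data known. Array values are given for members that passed by genotype or batch, the brightest of each cluster, and the highest and lowest fold change of each cluster by genotype. *Hoxa5*, *Hoxb7* as compared with the shared row, and the row of *Hoxb8* and *Hoxb7* were named after their values were seen. Each member has 1 row, so choosing the brightest row per gene changes nothing. Alternatives were other row sets, variance estimates, normalization, array weights, thresholds and batch terms, and leaving out each array.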

Additional observations from a re-analysis of the deposited data

Results flagged for a closer look

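In 5 of 32 groups of 4 arrays, 1 array lay far from the other arrays of its genotype, by a gap that took up most of the group's range and passed Dixon's 95% limit. The limit is set so that about 5% of groups drawn from 1 normal population pass it. Most of the genes here were picked by their values and each group mixes 2 batches, so the count cannot be set against that share. *Hoxa2* had 10.47 in control replicate 4, against 10.64 to 10.65 in the other control arrays. *Hoxb3* had 8.95 in control replicate 4, against 8.70 to 8.72, and *Hoxb4* had 6.13 in control replicate 1, against 6.34 to 6.37. *Hoxc13* had 6.75 in *Sox3* null replicate 1, against 6.47 to 6.51 in the other null arrays, and *Hoxd11* had 7.02 in *Sox3* null replicate 2, against 6.74 to 6.78.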

How the results depend on the processing

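No Hox gene was called by genotype under any of the 22 alternatives. At an adjusted p of 0.05 or less by genotype, 1 gene (*Hoxb3*) passed with rows at or above the median signal only, where the median over the 7 members left was 0.10 and over the 4 of *Hoxb* 0.16, and leaving out 1 array gave 0 to 1 genes. By batch, 1 gene passed with all rows of the table, 2 with rows at or above the median signal, 0 in the plain linear model, 2 without the genotype term, 0 in *Sox3* null arrays alone and 0 in control arrays alone, and leaving out 1 array gave 1 to 3. The cause was not tested, except that single genotypes hold fewer arrays. With a 1.2-fold threshold 1 gene (*Hoxb9*) was called by batch. The median batch difference was 0.0342 when the arrays were quantile normalized again, against -0.02 in the main fit, so its sign turned. The median batch difference of *Hoxa* was -0.10 over the 3 members at or above the median signal. The median percentile of the members was 32.9 among named rows and 39.1 among all rows.

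Signs turned for some genes that did not pass. By genotype, leaving out 1 array gave -0.0202 to 0.0781 for *Hoxc13*, -0.00692 to 0.159 for *Hoxc8* and -0.100365 to 0.0196 for *Hoxd11*. In batch 1 alone *Hoxc13* had -0.0684, *Hoxc8* -0.0976, *Hoxd11* 0.0108 and *Hoxa3* -0.00545, and in batch 2 alone *Hoxa11* had 0.0114. By batch, leaving out 1 array gave -0.0396 to 0.00928 for *Hoxb2* and -0.145 to 0.0286 for *Hoxd12*, and in *Sox3* null arrays alone *Hoxb2* had 0.0004, *Hoxa3* 0.00249 and *Hoxa11* 0.0241. *Hoxc4* passed by batch without control replicate 1 (adjusted p = 0.0182 from limma).

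The replicate number marks the batch in the labels and no closer pairing. Deviations of same-numbered arrays from their genotype and batch means had a correlation of -0.324 for replicates 1 and 2 and 0.305 for replicates 3 and 4. With the replicate number as a block, 0 members were called, 0 had an adjusted p of 0.05 or less, and the median fold change was 0.01, with an adjusted p of 0.0967 for *Hoxb3* and 0.00581 for the row of *Hoxb8* and *Hoxb7*. No paired analysis was possible for the batch comparison because each replicate number lies in 1 batch.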
